A study of Rattus norvegicus with 12 samples.

Results

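Transcripts of 4 genes of the mTOR and autophagy pathway were followed in urethral tissue of male rats after mechanical injury and treatment with rapamycin or a DNA nanostructure. The genes were chosen by Ensembl ID and not by their values, though with earlier results of these data known, and are 4 of the 32623 genes of the deposited count table: Mtor (ENSRNOG00000009615), Sqstm1 (ENSRNOG00000003147), Becn1 (ENSRNOG00000020513) and Map1lc3b (ENSRNOG00000017905). The table lists genes by ID alone, and a RefSeq gene table of 47357 rat genes matched 0 of its IDs, so the pairing of these IDs with symbols was taken over from the choice of genes and was not checked here. Each group held 3 libraries: urethral injury with rapamycin, urethral injury with tetrahedral DNA nanostructure (TDN), urethral injury without either agent, and sham tissue with no urethral injury. The injured groups share the mechanical lesion, and the labels give no strain, age, dose, route or time of harvest and do not say whether the group with injury alone received vehicle. Nothing in the labels says that each library stands for its own animal. All p-values therefore rest on the variation among libraries, part or all of which may be technical.

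Mtor encodes the kinase shared by both mTOR complexes, through which nutrients and growth factors promote protein synthesis and cell growth. Rapamycin binds an immunophilin, and the pair then inhibits mTOR complex 1, which when active restrains the start of autophagy and keeps transcription factors of lysosomal genes out of the nucleus. Becn1 encodes Beclin 1, a subunit of the lipid kinase complex that nucleates the autophagosome membrane. Map1lc3b encodes LC3B, which is joined to a lipid on that membrane, and Sqstm1 encodes p62, the receptor that tethers ubiquitinated cargo to LC3B and is itself degraded with it. Kinase activity, lipidation of LC3B and turnover of p62 take place at the level of protein and were not measured by these libraries.

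Total counts per library lay between 44765817 and 55928721, and the members had 1177 to 34857 counts each, so that counting error is small beside the spread between libraries. All 4 genes were among the 17521 that passed the filter on low counts. Levels are given as CPM, the counts of a gene scaled to a common library total, after TMM scaling, which adds a factor per library that balances the bulk of genes. One library stood apart: rapamycin replicate 2 had a TMM factor of 0.660 and 17475 genes with a count, where the remaining 11 libraries had factors of 0.873 to 1.13 and 18659 to 19254 genes. Rapamycin results are therefore also given without it, and the part of its composition in the results was not tested. The lists of smooth muscle, striated muscle, urothelial, fibroblast, endothelial and leukocyte markers could not be evaluated without symbols, so the labelled tissue was not checked against markers. In bulk tissue, fewer cells of a type and less RNA per cell cannot be told apart. Transcript lengths were not used here, so levels are compared between libraries and never between genes.

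The promoter sequences of 3 of the 4 genes are shown because Sqstm1 and Map1lc3b had closely parallel levels over the libraries while Mtor had opposite ones, as described below for each gene. RefSeq holds a window for Mtor, Sqstm1 and Map1lc3b, and each is given here as the 250 bases before the annotated start, 5′ to 3′ in the direction of the gene, on build GRCr8, which is not the build of the counts (Rnor 6.0). For Map1lc3b this start lies inside the RefSeq span of the gene, which begins farther upstream. Capitals mark matches, on either strand, to CACGTG (the core of the E-box and of the CLEAR element bound by TFEB), TGANTCA (AP-1), TGACNNNGC (the core of the antioxidant response element), CCAAT or TATAAA.
Mtor, chr5:164167735-164167984, plus strand: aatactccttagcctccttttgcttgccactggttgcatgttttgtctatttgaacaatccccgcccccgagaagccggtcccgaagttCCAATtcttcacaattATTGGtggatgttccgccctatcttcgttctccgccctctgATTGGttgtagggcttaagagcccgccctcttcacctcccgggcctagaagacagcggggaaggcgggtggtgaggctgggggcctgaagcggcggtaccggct
Sqstm1, chr10:35037751-35038000, minus strand: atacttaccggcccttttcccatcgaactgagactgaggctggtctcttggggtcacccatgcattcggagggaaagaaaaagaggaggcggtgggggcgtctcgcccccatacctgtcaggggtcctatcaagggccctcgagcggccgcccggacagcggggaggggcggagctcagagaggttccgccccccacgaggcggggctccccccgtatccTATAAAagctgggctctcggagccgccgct
Map1lc3b, chr19:66574345-66574594, plus strand: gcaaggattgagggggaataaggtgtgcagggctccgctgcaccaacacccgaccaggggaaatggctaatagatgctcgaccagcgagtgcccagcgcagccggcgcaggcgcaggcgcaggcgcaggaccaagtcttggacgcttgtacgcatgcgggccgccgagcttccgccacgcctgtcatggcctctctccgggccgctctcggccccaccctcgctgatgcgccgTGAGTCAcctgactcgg

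Different motifs were found in the 3 windows. The Mtor window held CCAAT once in the direction of the gene and its reverse, ATTGG, at 2 further places, a motif found in 34% of all 33465 windows of this length. The Sqstm1 window held TATAAA from 30 to 25 bases before the start, as 12.9% of windows did at any place. The Map1lc3b window held TGAGTCA from 17 to 11 bases before the start, and 6.34% of windows had such an AP-1 match. None of the 3 windows held CACGTG or TGACNNNGC, which were in 5.59% and 10.1% of windows. A match describes letters only, and a missing match says only that the letters are not in this window.

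**Figure D1:**
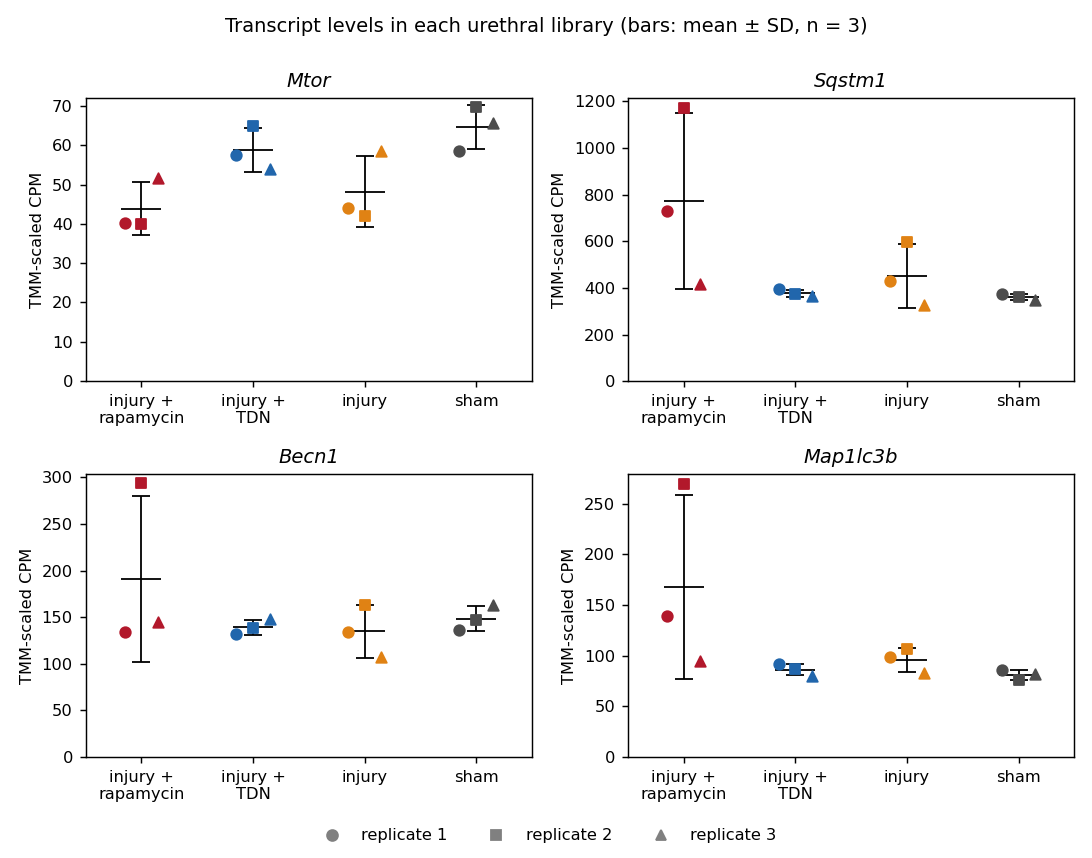
TMM-scaled CPM (vertical axis) of the 4 genes in each library, with injury + rapamycin, injury + TDN, injury and sham from left to right; symbols mark replicates, and bars show the mean ± SD of 3 libraries. Rapamycin replicate 2 is the highest library for Sqstm1 (1171 CPM), Becn1 (294 CPM) and Map1lc3b (270 CPM) and the lowest for Mtor (39.8 CPM).

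Mtor, the target of rapamycin, had its lowest mean level in rapamycin-treated tissue and its highest in sham, and no pair of groups passed the edgeR test. It was at 40.1, 39.8 and 51.6 CPM in rapamycin replicates 1 to 3. TDN tissue held 57.6, 64.8 and 53.8 CPM, injury alone 43.9, 42.0 and 58.5 CPM, and sham 58.5, 69.7 and 65.7 CPM. The low values were those of rapamycin replicates 1 and 2 and injury replicates 1 and 2, and replicate 3 of each of these groups was nearer to the TDN libraries.

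For the treatment itself, rapamycin against injury alone, the Mtor means were 43.8 ± 6.7 and 48.1 ± 9.0 CPM (SD, n = 3 each), and the groups overlapped. The log2 fold change was -0.13 with a standard error of 0.20 and a 95% interval of -0.57 to 0.30 (edgeR quasi-likelihood test over all genes, adjusted p = 0.909 by Benjamini-Hochberg). Of all tested genes, 78.7% had a larger difference in either direction. Without injury replicate 3 the sign turned, at a log2 fold change of 0.028, and without rapamycin replicate 2 it was -0.074.

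Against sham, the mean level of Mtor in rapamycin tissue was 0.678 of the sham level (95% interval 0.502 to 0.916), or -0.56 on the log2 scale with a standard error of 0.20. Every rapamycin library was below every sham library, in a comparison where 52.3% of all genes had no overlap. The Mtor difference missed the threshold over all genes (unadjusted p = 0.0162, edgeR adjusted p = 0.0713). The difference passed in DESeq2 (adjusted p = 0.0308), in limma voom with sample quality weights (adjusted p = 0.00785), in edgeR without rapamycin replicate 3 (adjusted p = 0.0265) and in edgeR without injury replicate 3, which shares the estimate of the spread (adjusted p = 0.0496). These settings called 5763, 8440, 7249 and 3936 of all genes in this comparison. Without rapamycin replicate 2 the log2 fold change was -0.44 and the edgeR adjusted p was 0.16. Without sham replicate 1, 2 or 3 the edgeR adjusted p was 0.137, 0.207 and 0.167, and in a fit of only the 2 groups 0.175.

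Injury alone gave a smaller fitted difference, with an Mtor level 0.745 of sham (95% interval 0.551 to 1.01; log2 fold change -0.43, standard error 0.20, edgeR adjusted p = 0.236). All injury libraries were below all sham libraries, though injury replicate 3 and sham replicate 1 were almost equal at 58.51 and 58.52 CPM. Between injury and sham, 42.3% of all genes had no overlap. In TDN tissue Mtor averaged 58.7 ± 5.6 CPM, against 48.1 ± 9.0 CPM in injury (log2 fold change 0.29, 95% interval -0.15 to 0.72, edgeR adjusted p = 0.649; 0.18 without injury replicate 2 and 0.45 without injury replicate 3) and 64.6 ± 5.7 CPM in sham (log2 fold change -0.14, 95% interval -0.57 to 0.29, edgeR adjusted p = 1). Set against TDN, rapamycin tissue had 0.746 of the Mtor level with no overlap of libraries (log2 fold change -0.42, 95% interval -0.86 to 0.012, edgeR adjusted p = 0.212; -0.34 and adjusted p = 0.443 without rapamycin replicate 2). With sample quality weights in limma voom, Mtor passed in injury against sham (adjusted p = 0.00388), in TDN against injury (adjusted p = 0.0243) and in rapamycin against TDN (adjusted p = 0.0360). That setting called 9322, 6581 and 5993 of all genes in these comparisons. Between rapamycin and TDN, 38.5% of all genes had no overlap.

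Becn1, which acts at the start of autophagosome formation, lay in a narrow range in all libraries but 1. It was at 134, 294 and 145 CPM in rapamycin replicates 1 to 3, at 132, 139 and 148 CPM in TDN, at 134, 163 and 107 CPM in injury, and at 136, 146 and 162 CPM in sham. A single library, rapamycin replicate 2, lay outside the range of 107 to 163 CPM that held the other 11. Before TMM scaling that library had 194 CPM, and the others 117 to 174 CPM, so it was the highest on either scale.

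Rapamycin tissue averaged 191 ± 89 CPM of Becn1, against 135 ± 28 CPM in injury (SD, n = 3 each; log2 fold change 0.50, standard error 0.29, 95% interval -0.14 to 1.15, edgeR adjusted p = 0.902). Without rapamycin replicate 2 the log2 fold change was 0.050. With sample quality weights in limma voom it was -0.13. Against sham the log2 fold change was 0.36 (95% interval -0.28 to 1.01, edgeR adjusted p = 0.351) and -0.036 without rapamycin replicate 2. Scaling by library size alone gave -0.060, but it also put the median of all genes at -0.37, beside -0.046 with TMM. Relative to the median of all genes, the direction of Becn1 against sham was thus kept under that scaling. It was not kept without rapamycin replicate 2, where Becn1 was at -0.036 and the median at 0.0093. Nor was it kept with sample quality weights in limma voom, where Becn1 was at -0.064 and the median at -0.047.

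For injury and for TDN, Becn1 against sham gave log2 fold changes of -0.14 (95% interval -0.78 to 0.51, edgeR adjusted p = 0.772) and -0.089 (95% interval -0.73 to 0.56, edgeR adjusted p = 1). TDN against injury gave 0.050 (95% interval -0.59 to 0.69, edgeR adjusted p = 0.947), and rapamycin against TDN 0.45 (95% interval -0.19 to 1.10, edgeR adjusted p = 0.309). The last value was 0.024 without rapamycin replicate 2, 0.0053 with sample quality weights in limma voom, and 0.044 with library size alone, where the median of all genes was -0.34. The 4 intervals reach beyond a fold change of 1.5 in 1 direction or both, so they do not show that the levels were alike. The libraries of Becn1 overlapped in all 6 comparisons.

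Map1lc3b, which marks the autophagosome membrane as LC3B, had its highest mean level in rapamycin tissue. It was at 139, 270 and 94.5 CPM in rapamycin replicates 1 to 3, at 91.4, 87.0 and 80.2 CPM in TDN, at 98.4, 107 and 83.3 CPM in injury, and at 86.2, 75.9 and 81.5 CPM in sham. Rapamycin replicates 1 and 2 were above every other library, while rapamycin replicate 3 was below injury replicates 1 and 2.

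Rapamycin against injury gave Map1lc3b means of 168 ± 91 and 96.1 ± 11.8 CPM (SD, n = 3 each), a fold of 1.75 with a 95% interval of 1.08 to 2.84. On the log2 scale this was 0.80 with a standard error of 0.32, and the difference did not pass over all genes (unadjusted p = 0.0279, edgeR adjusted p = 0.902). It ranked 417th by p among 17521 genes, and 18.1% of genes had a larger difference in either direction. Without rapamycin replicate 2 the log2 fold change was 0.28, and without rapamycin replicate 3 it was 1.09. With sample quality weights in limma voom it was 0.38.

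Against sham, where Map1lc3b averaged 81.2 ± 5.2 CPM, rapamycin tissue had 2.07 times the level (95% interval 1.27 to 3.36; log2 fold change 1.05, standard error 0.32). Libraries did not overlap, nor did those of 52.3% of all genes. The Map1lc3b difference came close to the threshold (unadjusted p = 0.00740, edgeR adjusted p = 0.0530). It passed in DESeq2 (adjusted p = 0.0143), with sample quality weights in limma voom (adjusted p = 0.00330), when genes were filtered on a mean of at least 1 CPM (edgeR adjusted p = 0.0492), without rapamycin replicate 3 (edgeR adjusted p = 0.00912) and without injury replicate 3 (edgeR adjusted p = 0.0461). These settings called 5763, 8440, 2412, 7249 and 3936 of all genes in this comparison. Without rapamycin replicate 2 the log2 fold change was 0.58 (edgeR adjusted p = 0.0925). Without sham replicate 1, 2 or 3 the edgeR adjusted p was 0.133, 0.149 and 0.140, and in a fit of only the 2 groups 0.143.

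Rapamycin against TDN also left the Map1lc3b libraries without overlap, with means of 168 ± 91 and 86.2 ± 5.6 CPM (SD, n = 3 each; log2 fold change 0.96, 95% interval 0.26 to 1.66, edgeR adjusted p = 0.161). This difference passed in DESeq2 (adjusted p = 0.0485), with sample quality weights in limma voom (adjusted p = 0.0130) and without rapamycin replicate 3 (edgeR adjusted p = 0.0247). The 3 settings called 1738, 5993 and 4788 of all genes, and 38.5% of genes had no overlap in this comparison. Leaving out rapamycin replicate 2 gave a log2 fold change of 0.46 (edgeR adjusted p = 0.418). Injury without treatment against sham gave a log2 fold change of 0.24 (95% interval -0.45 to 0.94, edgeR adjusted p = 0.630). There the difference passed with sample quality weights in limma voom (adjusted p = 0.0371), a setting that called 9322 of all genes. TDN tissue gave -0.16 against injury (95% interval -0.85 to 0.54, edgeR adjusted p = 0.832; -0.25 without injury replicate 3 and -0.098 without injury replicate 2) and 0.086 against sham (95% interval -0.61 to 0.78, edgeR adjusted p = 1).

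Sqstm1, the cargo receptor p62, had the largest fitted difference of the 4 genes between rapamycin tissue and sham. It was at 732, 1171 and 418 CPM in rapamycin replicates 1 to 3, at 393, 373 and 364 CPM in TDN, at 429, 597 and 325 CPM in injury, and at 374, 361 and 350 CPM in sham. Rapamycin replicates 1 and 2 were again above every other library, and rapamycin replicate 3 was above all TDN and sham libraries but below injury replicates 1 and 2.

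In rapamycin tissue Sqstm1 averaged 774 ± 378 CPM, against 450 ± 137 CPM in injury (SD, n = 3 each), a fold of 1.72 with a 95% interval of 1.02 to 2.89. The log2 fold change was 0.78 with a standard error of 0.34, and it did not pass over all genes (unadjusted p = 0.0421, edgeR adjusted p = 0.902). It ranked 617th by p, and 19.0% of genes had a larger difference. Leaving out rapamycin replicate 2 gave 0.36, and leaving out rapamycin replicate 3 gave 1.08. Sample quality weights in limma voom gave 0.33.

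Against 362 ± 12 CPM in sham, the fold for Sqstm1 in rapamycin tissue was 2.14 (95% interval 1.27 to 3.6; log2 fold change 1.10, standard error 0.34), with no overlap (unadjusted p = 0.00836, edgeR adjusted p = 0.0552). The difference passed in DESeq2 (adjusted p = 0.0128), with sample quality weights in limma voom (adjusted p = 0.00304), without rapamycin replicate 3 (edgeR adjusted p = 0.00937) and without injury replicate 3 (edgeR adjusted p = 0.0411). These settings called 5763, 8440, 7249 and 3936 of all genes, and 52.3% of genes had no overlap in this comparison. Without rapamycin replicate 2 the log2 fold change was 0.72 (edgeR adjusted p = 0.125). Without sham replicate 1, 2 or 3 the edgeR adjusted p was 0.138, 0.148 and 0.148, and in a fit of only the 2 groups 0.135. Rapamycin tissue was above the 377 ± 15 CPM of TDN by 1.04 on the log2 scale (95% interval 0.29 to 1.79, edgeR adjusted p = 0.161), with no overlap of libraries. This difference passed in DESeq2 (adjusted p = 0.0405), with sample quality weights in limma voom (adjusted p = 0.00945) and without rapamycin replicate 3 (edgeR adjusted p = 0.0247). The 3 settings called 1738, 5993 and 4788 of all genes, and 38.5% of genes had no overlap in this comparison. Leaving out rapamycin replicate 2 gave a log2 fold change of 0.63 (edgeR adjusted p = 0.433).

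Injury alone differed from sham by 0.32 in log2 Sqstm1 (95% interval -0.43 to 1.06, edgeR adjusted p = 0.554), or by 0.12 without injury replicate 2, the highest of its group, and 0.51 without injury replicate 3, the lowest. TDN tissue differed from injury by -0.26 (95% interval -1.0 to 0.49, edgeR adjusted p = 0.746; -0.023 without injury replicate 2 and -0.44 without injury replicate 3) and from sham by 0.060 (95% interval -0.68 to 0.80, edgeR adjusted p = 1). With sample quality weights in limma voom, both injury against sham (adjusted p = 0.0104) and TDN against injury (adjusted p = 0.0248) passed. That setting called 9322 and 6581 of all genes in these comparisons.

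**Figure D2:**
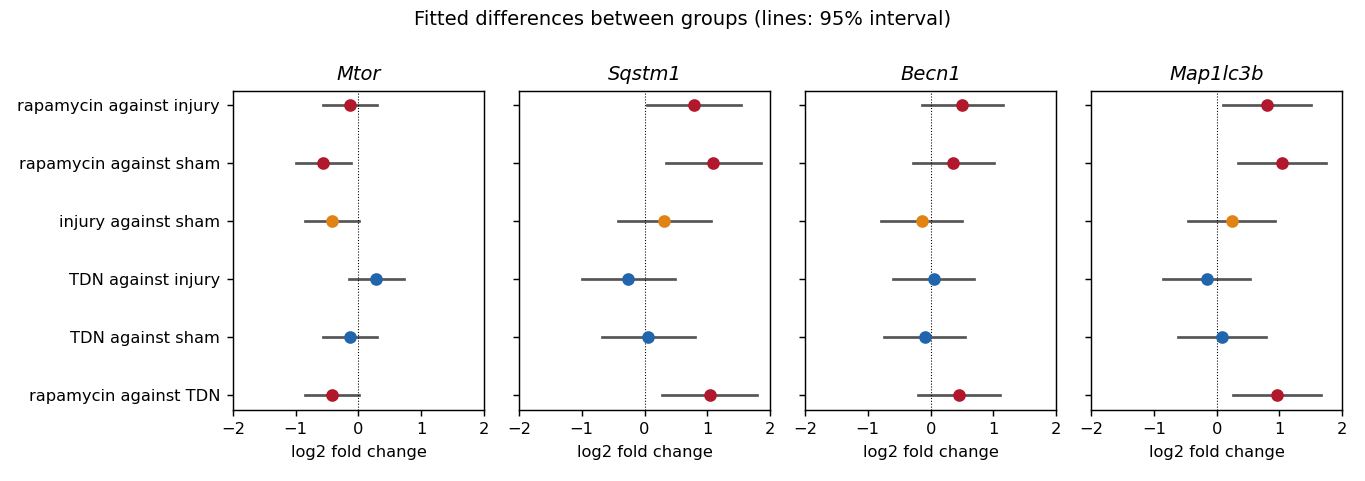
Fitted log2 fold change (horizontal axis) of each gene in the 6 comparisons, with lines for the 95% interval; red points are comparisons of rapamycin tissue, blue points those of TDN with injury or sham, and orange injury against sham. For Sqstm1 and Map1lc3b the 3 rapamycin comparisons lie between 0.78 and 1.10, and no point passed the adjusted test over all genes.

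None of the 24 fitted differences, 4 genes in 6 comparisons, reached an edgeR adjusted p under 0.05. Read against all genes, this count differs between the comparisons. In rapamycin against injury, edgeR called 0% of 17521 genes, while at an unadjusted p under 0.05 it had 523 with a higher and 244 with a lower level, DESeq2 called 30 genes and limma voom 0 with and without sample quality weights. In rapamycin against sham, 12.3% of genes passed, none of them among these 4, and the number of genes called ran from 1 without sham replicate 1 or sham replicate 2 to 7249 without rapamycin replicate 3. The shares called were 0.651% in injury against sham (2117 genes without injury replicate 3, and 0 when injury replicate 1, sham replicate 1 or sham replicate 2 was left out) and 0% in TDN against injury, TDN against sham and rapamycin against TDN. In edgeR at an unadjusted p under 0.05 these last 3 comparisons had 294, 688 and 3158 genes higher and 780, 242 and 1102 lower. DESeq2 called 44, 315 and 1738 genes in them, limma voom 0 in each, and limma voom with sample quality weights 6581, 1959 and 5993. Without rapamycin replicate 3, edgeR called 4788 genes in rapamycin against TDN.

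A test for any difference among the 4 groups did not pass for Map1lc3b (edgeR adjusted p = 0.139), Sqstm1 (adjusted p = 0.142), Mtor (adjusted p = 0.207) or Becn1 (adjusted p = 0.512). In this edgeR fit 0.0171% of genes passed it. In DESeq2 it passed for Sqstm1 (adjusted p = 0.0262) and Map1lc3b (adjusted p = 0.030), and without rapamycin replicate 3 edgeR passed the same pair at 0.0263 and 0.0255. The test did not pass without rapamycin replicate 2 (edgeR adjusted p = 0.236 for Sqstm1, 0.186 for Map1lc3b, 0.254 for Mtor, 0.965 for Becn1). With sample quality weights in limma voom it passed for Mtor (adjusted p = 0.00810), Sqstm1 (adjusted p = 0.00392) and Map1lc3b (adjusted p = 0.00813). The share of all genes that passed it in these other settings was not counted. Comparisons of 2 groups with those weights called 0 to 9322 genes.

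Libraries that did not overlap between groups were common among all genes. Mtor, Sqstm1 and Map1lc3b did not overlap between rapamycin and sham, where 52.3% of all genes did not, and the same 3 did not overlap between rapamycin and TDN, where 38.5% of genes did not. For injury against sham, Mtor alone did not overlap, against 42.3% of genes. In rapamycin against injury, TDN against injury and TDN against sham, all 4 genes overlapped, where 3.94%, 19.5% and 32.6% of genes did not.

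**Figure D3:**
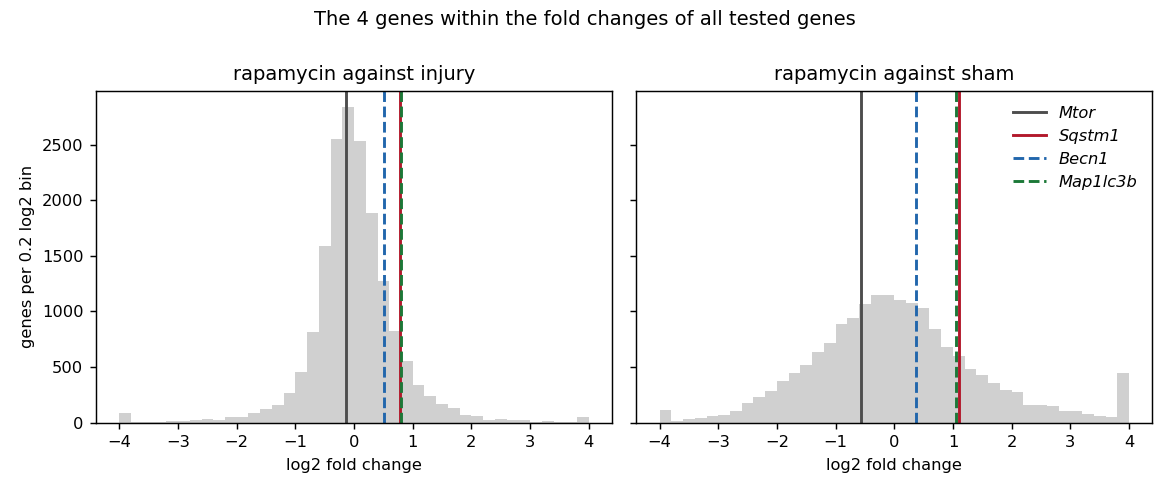
Number of tested genes (vertical axis) in bins of log2 fold change (horizontal axis) for rapamycin against injury on the left and against sham on the right, with vertical lines at the 4 genes; the outermost bins also hold all genes beyond 4 in either direction. Sqstm1 and Map1lc3b lie on the right flank at 0.78 and 0.80 against injury, where 10.6% and 10.1% of genes had a higher fold change, and at 1.10 and 1.05 against sham, where 19.8% and 20.6% had a higher one.

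The order of the mean levels differed by gene. From high to low, Mtor ran sham, TDN, injury and rapamycin, while Sqstm1 and Map1lc3b ran rapamycin, injury, TDN and sham, the reverse of it. Becn1 ran rapamycin, sham, TDN and injury. No neighbours in these orders differed past the threshold of the edgeR test.

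Spread within the groups was uneven. Across the 3 rapamycin libraries the SD of log2 CPM was 0.74 for Sqstm1, 0.76 for Map1lc3b and 0.62 for Becn1, close to or below the median of 0.77 over all tested genes in that group, and 0.21 for Mtor. Within injury it was 0.44 for Sqstm1, 0.30 for Becn1, 0.26 for Mtor and 0.18 for Map1lc3b, all below the median of 0.51. TDN and sham libraries were tight, with SDs of 0.057 to 0.14 in TDN and 0.047 to 0.13 in sham for the 4 genes, beside medians over all genes of 0.19 and 0.17.

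Ratios of the counts of a pair of genes in the same library do not depend on scaling between libraries, and were added after the levels had been seen. The ratio of Sqstm1 to Mtor counts was 18.2, 29.4 and 8.11 in rapamycin replicates 1 to 3. It was 6.83, 5.76 and 6.77 in TDN, 9.76, 14.2 and 5.55 in injury, and 6.39, 5.18 and 5.33 in sham. All rapamycin libraries were above all TDN and sham libraries, and rapamycin replicate 3 was below injury replicates 1 and 2. Injury replicate 3 lay within the sham range.

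The ratio of Map1lc3b to Mtor counts followed the same order of libraries at its upper end, at 3.47, 6.77 and 1.83 in rapamycin, 1.59, 1.34 and 1.49 in TDN, 2.24, 2.54 and 1.42 in injury, and 1.47, 1.09 and 1.24 in sham. The ratio of Becn1 to Mtor counts was 2.80 to 7.37 in rapamycin, 2.14 to 2.74 in TDN, 1.83 to 3.89 in injury and 2.10 to 2.47 in sham. There too all rapamycin libraries were above all TDN and sham libraries. How many other genes give such a ratio to Mtor was not counted. By contrast, the ratio of Map1lc3b to Sqstm1 counts kept within 0.178 to 0.256 over all 12 libraries. Its group means were 0.216 ± 0.022 in rapamycin, 0.229 ± 0.007 in TDN, 0.221 ± 0.040 in injury and 0.225 ± 0.013 in sham (SD, n = 3 each). Even in rapamycin replicate 2, where both genes were highest, the ratio was 0.230.

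**Figure D4:**
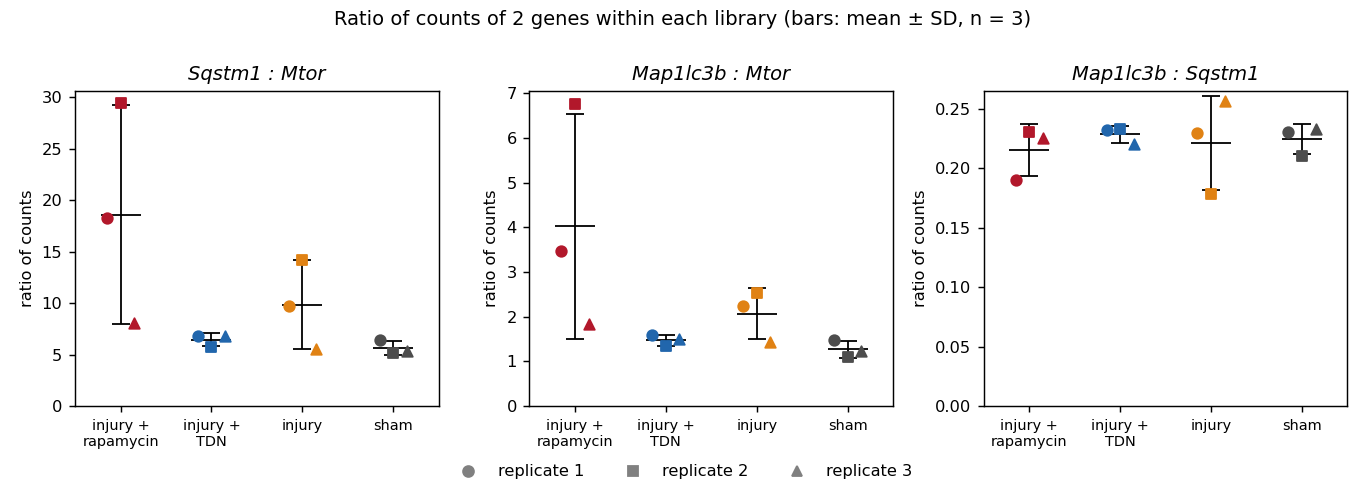
Ratio of the counts of 2 genes within each library (vertical axis), for injury + rapamycin, injury + TDN, injury and sham from left to right; symbols mark replicates, and bars show the mean ± SD of 3 libraries. The Sqstm1 to Mtor ratio reaches 29.4 in rapamycin replicate 2 beside 5.18 to 6.39 in sham, while the Map1lc3b to Sqstm1 ratio stays between 0.178 and 0.256.

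Likeness of pattern was measured by Pearson's correlation of log2 CPM over the 12 libraries, as a description without a test, since the libraries share groups, scaling and composition. Sqstm1 and Map1lc3b had r = 0.97 (Spearman's rho = 0.93), r = 0.93 after the group means were removed, and r = 0.86 over the 10 libraries left without rapamycin replicates 1 and 2. Of 11870 other genes with a mean of at least 5 CPM, 7 were more like Sqstm1 than Map1lc3b was. Mtor had r = -0.82 with Sqstm1 and -0.75 with Map1lc3b (rho = -0.87 for each). Of the other 11870 genes, 84.6% had a higher r with Mtor than Sqstm1 had, and 76.6% a higher r than Map1lc3b had. The remaining genes ran as opposite to Mtor or more so. Becn1 had r = 0.77 with Sqstm1 and 0.79 with Map1lc3b but rho of only 0.20 and 0.063, and its r with Sqstm1 was 0.49 without rapamycin replicates 1 and 2. Its r with Map1lc3b was -0.25 without rapamycin replicate 2 and injury replicate 3, so that this likeness rests on those libraries. After the group means were removed, the r of Becn1 was 0.79 with Sqstm1 and 0.83 with Map1lc3b, over all 12 libraries. The 2 libraries left out were those farthest from the median of Sqstm1 in its pairs and of Becn1 in the pair with Map1lc3b. These reduced values are therefore not comparable between the Becn1 pairs.

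High correlations were common in these data, with 20.3% of genes above 0.8 with Map1lc3b, 19.7% with Sqstm1, 16.2% with Mtor and 6.36% with Becn1. The gene most like Map1lc3b was ENSRNOG00000048205 (r = 0.99), at 245 CPM in rapamycin, 143 in TDN, 154 in injury and 136 in sham. ENSRNOG00000047914 was most like Sqstm1 (r = 0.99), at 54.8, 30.8, 35.8 and 30.6 CPM in the same groups. ENSRNOG00000026455 was most like Becn1 (r = 0.97), at 160, 117, 124 and 125 CPM. ENSRNOG00000005639 was most like Mtor (r = 0.97), at 0.759, 4.95, 2.67 and 13.6 CPM. The sources used here give these IDs no name.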

How the data were processed

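Per the labels' protocols, poly(A)-enriched RNA was sequenced from both fragment ends. The authors deposited raw counts, as whole numbers by gene and library, made on build Rnor 6.0 per the submitters' processing notes. Aligner, counter, annotation and strand use were not given in the sources used here. Reads of overlapping or antisense genes and of near-identical copies, such as processed pseudogenes, may therefore be mixed. Of the 15 library columns, 3 matched no labelled sample and were not used. No 2 of the 12 columns used were identical, and the unused columns were not compared.

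The test was edgeR's quasi-likelihood test (version 4.0.16, R 4.3.3; TMM scaling, default filter by group, 12 libraries in 4 groups, 8 residual degrees of freedom, no covariate). P-values were adjusted by Benjamini-Hochberg over 17521 genes, with a threshold of 0.05. The standard error is the absolute log2 fold change over the square root of F. The code was checked on simulated counts. Alternatives were DESeq2 1.42.0, limma 3.58.1, other scalings and filters, fewer groups or libraries, and a replicate block. Deviations from the group means were correlated over genes between same-numbered libraries only. These correlations were over 0.1 in all 3 pairs only for injury and sham (0.107, 0.138 and 0.261). For rapamycin and injury the correlations were 0.0921, 0.156 and 0.550 in replicates 1 to 3, the last being the highest of the same-numbered pairs. Differently numbered pairs were not computed, so whether same-numbered libraries went together more than others was not tested. Replicate numbers were taken from the library titles, and the labels do not say whether they mark pairs. The members and lists were chosen with earlier results of these data known. Lists by symbol were not evaluated. The genes named are the 4 members and, by rule, the 2 most like each, of which the first is printed.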

Additional observations from a re-analysis of the deposited data

How the results depend on the processing

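The recomputed member results include those of the test for any difference, which have no direction. Of 624 in all, 583 kept their side of the threshold and any direction they had, 32 newly passed it and 9 changed sign. The cause of these changes was not tested. Newly passed log2 fold changes in DESeq2 were -0.52 (Mtor), 1.15 (Sqstm1) and 1.11 (Map1lc3b) for rapamycin against sham, where it called 5763 of all genes. For rapamycin against TDN, where it called 1738 genes, they were 1.10 (Sqstm1) and 1.03 (Map1lc3b). The DESeq2 adjusted p for any difference was 0.0262 (Sqstm1) and 0.030 (Map1lc3b). In limma voom with sample quality weights, Mtor, Sqstm1 and Map1lc3b passed at -0.64, 0.91 and 0.75 for rapamycin against sham, at -0.60, 0.58 and 0.37 for injury against sham and at -0.50, 0.86 and 0.65 for rapamycin against TDN. That setting called 8440, 9322 and 5993 of all genes in these comparisons, and 6581 in TDN against injury. Mtor and Sqstm1 passed at 0.45 and -0.53 for TDN against injury, and any difference gave adjusted p of 0.00810, 0.00392 and 0.00813. The share of all genes that passed the test for any difference was not counted outside the main setting. A minimum mean of 1 CPM gave 1.05 for Map1lc3b in rapamycin against sham.

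Becn1 changed sign with sample quality weights in rapamycin against injury (-0.13) and sham (-0.064), injury against sham (0.061) and TDN against injury (-0.13), and with library size only in rapamycin against sham (-0.060). Library size only put the median of all genes at -0.37 in rapamycin against sham, beside -0.046 with TMM, and relative to that median Becn1 stayed higher. Upper quartile scaling put the median at -0.14. Sample quality weights put the median at -0.047, and there Becn1 was below it.

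Leaving out single libraries gave log2 fold changes for rapamycin against sham of -0.70 to -0.44 (Mtor), 0.72 to 1.39 (Sqstm1), 0.58 to 1.33 (Map1lc3b) and -0.036 to 0.57 (Becn1). For rapamycin against TDN they were 0.63 to 1.33 (Sqstm1) and 0.46 to 1.24 (Map1lc3b), for rapamycin against injury -0.27 to 0.028 (Mtor), and for Becn1 -0.24 to 0.0028 in injury against sham and -0.091 to 0.19 in TDN against injury. The adjusted p for any difference was 0.0263 to 0.300 (Sqstm1) and 0.0255 to 0.299 (Map1lc3b).

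The number of genes called moved more than the members did. For rapamycin against sham (2162) it was 5763 in DESeq2, 8440 with sample quality weights, 731 with library size only, 1157 with no expression filter, 34 in a fit of only the 2 groups and 1 to 7249 without single libraries. For injury against sham (114) it was 1924, 9322, 180 with upper quartile scaling, 0 in a fit of only the 2 groups, 2616 without the rapamycin group and 0 to 2117 without single libraries. In TDN against sham (0) it was 315, 1959, 6 with library size only, 993 in the 2 groups, 10 without the rapamycin group and 0 to 16. Rapamycin against TDN (0) gave 1738, 5993 and 0 to 4788, rapamycin against injury (0) gave 30 in DESeq2 and 0 to 3, and TDN against injury (0) gave 44 and 6581. With the replicate block, 76 genes were called for injury against sham and 2586 for rapamycin against sham, and no call of the 4 genes changed; Mtor was at -0.57, Sqstm1 at 1.0 and Map1lc3b at 0.96 for rapamycin against sham.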
